A study of Mus musculus with 16 samples.

Results

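The 10 genes described here belong to the NF-kappaB pathway and were taken by gene symbol from the 21923 genes of a gastrocnemius RNA-seq table: the receptors Tnfrsf1a and Tnfrsf12a, the adaptor Myd88, the subunits Nfkb1, Nfkb2, Rela and Relb, the atypical IkB protein Bcl3, and the inhibitors Nfkbia and Tnfaip3. The rule uses symbols and no measured value, although the list was drawn up with earlier results of these data known, and all 10 genes passed the filter on low counts in every comparison. The study asked whether amiloride, a potassium-sparing diuretic that also inhibits exosome release, changes the muscle of mice with cancer cachexia. The gastrocnemius, a calf muscle, was taken from 16 mice on day 30 after inoculation, 4 in each of 4 groups.

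The NOR mice received PBS and no tumor cells. The CAC mice carried subcutaneous tumors of unmodified cells and were given PBS from day 9. The AM mice carried the same kinds of tumors and received amiloride at 2 mg/kg every day from day 9, by the intraperitoneal route, and are titled T in the labels. The KD mice carried tumors of Rab27-knockdown cells and no drug, so that the knockdown lay in the tumor and not in the muscle measured here. Every group held 2 mice labelled C57BL/6 (replicates 1 and 2), which carried LLC lung carcinoma cells in the tumor groups, and 2 labelled BABL/c, written BALB/c in the protocol (replicates 3 and 4), which carried CT26 colon carcinoma cells. Strain and tumor line therefore cannot be told apart. By the study's methods the mice were adults aged 6 to 8 weeks. The methods name males of both strains, whereas the protocol names male and female BALB/c mice, and the sex of each mouse was not given in the sources used here.

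NF-kappaB transcription factors are dimers of Rel family subunits that are held in the cytoplasm by IkB proteins until a kinase complex marks the IkB proteins for degradation. Receptors of the TNF family act on that kinase through TRAF and death-domain adaptors, whereas interleukin-1 and Toll-like receptors act through Myd88. Nfkbia, Tnfaip3, Nfkb2, Relb and Bcl3 are also known targets of the pathway that feed back on it, and in skeletal muscle NF-kappaB activity is known for its part in wasting, while the TWEAK receptor Tnfrsf12a is known to be induced in denervated and atrophying muscle.

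The promoter windows of the members were read beside the expression data, because several members are themselves known pathway targets. RefSeq windows of 300 bases on GRCm38.p6, from 250 bases before to 50 after an annotated start, were at hand for 8 of the 10 genes, in 11 windows, and none was at hand for Nfkb1 and Relb. A match to the NF-kappaB consensus, a motif of 10 bases with ambiguity letters searched on both strands, was found in 6 of these 11 windows, belonging to 4 genes, and in 2779 of all 32851 windows (8.46%). With A or T required at the 6th base the share of all windows was 4.51%, and the same 4 genes had a match. The window of Nfkbia is shown because Nfkbia rose in CAC mice and its window holds a match. One window each of Bcl3, Nfkb2 and Tnfaip3 is shown for comparison, chosen after their values were seen. Capitals mark the matched letters, and each run is written 5′ to 3′ on the strand of its gene. The windows are chr12:55492598-55492897 (minus strand) for Nfkbia, chr7:19822706-19823005 (minus) for Bcl3, chr19:46304487-46304786 (plus) for Nfkb2 and chr10:19015361-19015660 (minus) for Tnfaip3.
Nfkbia: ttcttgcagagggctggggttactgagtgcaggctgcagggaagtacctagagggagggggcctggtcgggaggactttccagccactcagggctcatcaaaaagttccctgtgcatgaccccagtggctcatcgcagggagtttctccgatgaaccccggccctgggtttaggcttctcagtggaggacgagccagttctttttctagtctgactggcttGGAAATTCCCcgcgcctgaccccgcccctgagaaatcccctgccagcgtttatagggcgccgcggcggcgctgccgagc
Bcl3: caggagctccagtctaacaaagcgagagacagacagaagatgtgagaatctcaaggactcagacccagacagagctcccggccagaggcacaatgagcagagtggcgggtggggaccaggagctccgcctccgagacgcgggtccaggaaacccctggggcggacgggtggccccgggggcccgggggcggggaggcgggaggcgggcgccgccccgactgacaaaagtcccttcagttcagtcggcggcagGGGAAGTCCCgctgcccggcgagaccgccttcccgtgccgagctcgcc
Nfkb2: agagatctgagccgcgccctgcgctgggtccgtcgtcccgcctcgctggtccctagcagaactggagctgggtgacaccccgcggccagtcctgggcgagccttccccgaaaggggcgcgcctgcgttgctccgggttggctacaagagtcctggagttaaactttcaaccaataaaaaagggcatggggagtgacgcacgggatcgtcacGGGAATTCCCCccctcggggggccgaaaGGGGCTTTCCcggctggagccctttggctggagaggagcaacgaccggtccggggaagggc
Tnfaip3: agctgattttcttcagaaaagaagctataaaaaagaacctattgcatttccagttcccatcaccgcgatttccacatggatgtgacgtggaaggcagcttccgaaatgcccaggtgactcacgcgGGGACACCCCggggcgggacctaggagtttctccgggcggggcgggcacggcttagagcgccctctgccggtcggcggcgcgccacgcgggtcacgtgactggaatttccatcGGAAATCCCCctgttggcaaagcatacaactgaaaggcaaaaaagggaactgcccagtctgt
The Nfkbia match began 29 bases before the annotated start. The Nfkb2 window held 3 matches, of which the first 2 overlap by all but 1 base, and other Nfkb2 windows, which overlap each other and share a match, held 2 and 1. No match was found in the windows of Rela, Myd88, Tnfrsf12a and Tnfrsf1a, nor in a second window of Tnfaip3. A match describes letters in the window and not a bound site, and its absence says only that these letters are not in these 300 bases.

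On GRCm38 the receptor genes lie at chr6:125349362-125362484 (Tnfrsf1a, plus strand) and chr17:23675445-23677468 (Tnfrsf12a, minus). Relb (chr7:19606217-19629438) and Bcl3 (chr7:19808462-19822770) lie 179.0 kb apart on the same strand. Whether the counting used strand is not given in the sources used here. Myd88 (chr9:119335934-119341411) shares 290 exonic bases with Acaa1a on the other strand, and Nfkb2 (chr19:46304320-46312385) shares 299 with Psd and 531 with AC114539.1, together 18.1% of its exonic bases, so that reads of these stretches cannot be assigned to one gene if strand was ignored. Bcl3 shares 161 exonic bases with the antisense gene Gm16175.

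Each library held 35913190 to 61032708 counts, and muscle markers summed to 71381 to 201084 CPM (counts scaled to TMM-normalized library size) in all 16 libraries, so markers of the labelled tissue were present. Some libraries stood apart. The 9 B cell markers summed to 0.491 to 4.12 CPM in NOR 1, CAC 1, CAC 4, KD 2 and KD 3, and to 41.8 to 493 CPM in the other 11 libraries, and the 9 T cell markers to 1.20 to 5.93 against 17.2 to 173 CPM. CAC 4, AM 1, AM 3 and KD 1 shared a pattern of 4 genes chosen after their values were seen, among them Gm11127 (20.7 to 51.2 CPM, against at most 0.0951 in the other 12 libraries). This pattern cut across the labelled strains, 2 mice of each, whereas labelled strain itself, tested over all 16 libraries, called 0 of 15220 genes in edgeR (248, or 1.63%, at an unadjusted p below 0.05). The labelled strains, compared as groups, thus differed at no gene. Whether the strain labels hold for each single mouse was not tested. Each value by labelled strain below takes them as given and can be no better than the labels. AM 1 held 1689 CPM of liver markers, and KD 3 held 0 CPM of 4 Y-linked genes, which summed to 110 to 172 CPM elsewhere. Neutrophil markers summed to 6.33 to 35.2 CPM in NOR and 106 to 261 CPM in CAC mice, and erythroid markers to 1049 to 1359 and 3628 to 8615 CPM. Fibroblast markers summed to 2453 to 3308 CPM in NOR, 857 to 1447 in CAC and 1896 to 2775 in AM mice, and tendon markers to 645 to 1073, 189 to 438 and 518 to 802 CPM, so that both lists separated CAC from NOR and from AM mice without overlap. In bulk muscle fewer cells of a type and less RNA per cell cannot be told apart, and the part of these markers in the results below was not tested other than by the fits that are named.

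Levels can be compared between genes only per length, and for this the FPKM deposited by the authors were used. In NOR mice Tnfrsf1a was highest with 58.7 ± 5.80 FPKM (mean ± SD, n = 4), followed by Tnfrsf12a with 39.7 ± 14.3 and Nfkbia with 39.6 ± 12.2. These last 2 did not differ beyond their spread. Nfkb1 (17.9 ± 2.65 FPKM), Rela (15.2 ± 1.91), Relb (12.0 ± 3.34), Myd88 (11.7 ± 2.22) and Nfkb2 (10.4 ± 3.10) followed with overlapping ranges from each gene to the next. Tnfaip3 (6.72 ± 1.20) and Bcl3 (6.43 ± 2.21) were lowest and overlapped as well. In CAC mice the same 3 genes led, with 97.7 ± 14.8 FPKM for Tnfrsf1a, 79.1 ± 16.6 for Nfkbia and 70.9 ± 18.9 for Tnfrsf12a, and Tnfaip3 was lowest with 6.27 ± 3.55.

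**Figure D1:**
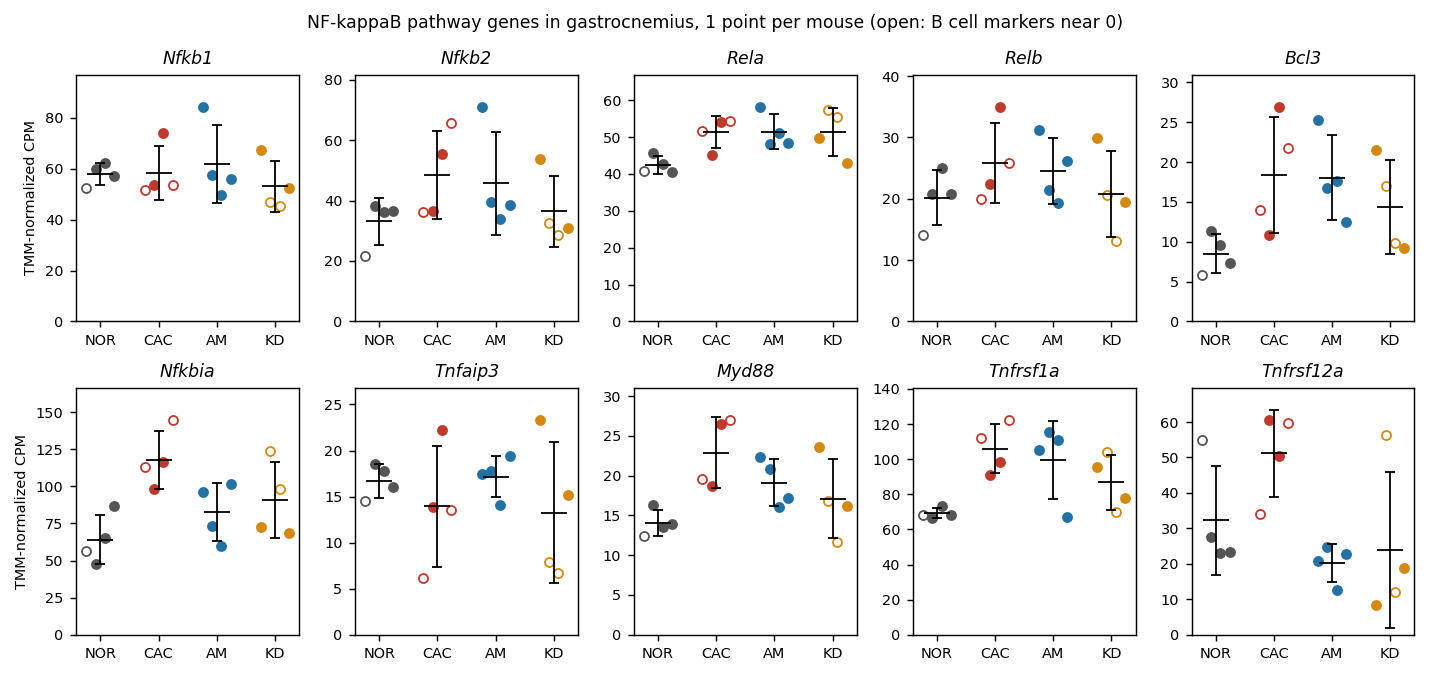
Normalized level (CPM, linear axis from 0) of each of the 10 genes in each of the 16 mice, with group mean and SD as a bar and whiskers. Open points are the 5 libraries with B cell markers near 0. All 4 CAC points lie above all 4 NOR points for Nfkbia, Myd88 and Tnfrsf1a, and all 4 AM points of Tnfrsf12a lie below all 4 CAC points.

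The comparison of CAC with NOR mice asked what cachexia changed. Of the 10 genes, 3 rose and 0 fell: Nfkbia, encoding the IkB-alpha inhibitor, rose 1.84-fold, Myd88 1.63-fold and Tnfrsf1a, the main receptor of TNF, 1.53-fold. A gene is said to have risen or fallen where the edgeR quasi-likelihood test gave a false discovery rate (FDR) of at most 0.05 over all genes and the fold change was at least 1.5 or at most 0.667. Of all 14666 genes tested, 4.32% rose and 5.13% fell by the same rule. The groups did not overlap for 3 of the 10 genes, against 22.8% of all genes. The median log2 fold change of the 10 genes was 0.58, beside 0.01 for all genes, and 9 of the 10 were above 0.

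Tnfrsf1a stood at 68.3, 66.7, 73.3 and 68.5 CPM in NOR mice 1 to 4, at 112, 90.7, 98.7 and 122 in CAC, at 105, 116, 111 and 67.0 in AM and at 95.4, 104, 69.8 and 78.1 in KD mice. Every CAC mouse was above every NOR mouse, and the NOR mice lay close together, while the AM and KD groups reached from the NOR range into the CAC range. The log2 fold change of CAC over NOR was 0.61 (SE 0.106, FDR 0.00988 in edgeR). Its FDR remained below 0.05 with any one library left out (0.0110 to 0.0384), but without CAC 4 the log2 fold change was 0.54, under the limit of 1.5-fold.

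Tnfrsf12a, the receptor of the cytokine TWEAK, stood at 55.0, 27.6, 23.1 and 23.4 CPM in NOR, at 34.1, 60.6, 50.5 and 59.7 in CAC, at 20.9, 24.6, 12.6 and 22.7 in AM and at 8.52, 56.4, 12.1 and 18.8 in KD mice. NOR 1 lay within the CAC range and far above the other 3 NOR mice, and KD 2 lay likewise above the other 3 KD mice. Both are among the 5 libraries low in B cell markers, but so are CAC 1, the lowest CAC mouse, and KD 3, at 12.1 CPM. The difference of CAC from NOR, 0.67 on the log2 scale (SE 0.313), had an edgeR FDR of 0.200 with all 8 libraries. Without NOR 1 it was 1.05 with an FDR of 0.0265, and without all 5 low libraries it was 1.17 with an FDR of 0.0301, so this library alone decides the call.

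Myd88, which links interleukin-1 and Toll-like receptors to the kinase complex, stood at 12.4, 16.3, 13.5 and 13.9 CPM in NOR, at 19.5, 18.7, 26.5 and 27.0 in CAC, at 22.3, 20.9, 16.1 and 17.1 in AM and at 23.7, 16.9, 11.6 and 16.2 in KD mice. The lowest CAC mouse was above the highest NOR mouse, and CAC 3 and CAC 4 were the highest of the group. The log2 fold change was 0.71 (SE 0.159, edgeR FDR 0.0236). Without NOR 1, NOR 3, NOR 4 or CAC 3 the edgeR FDR was 0.0587, 0.0714, 0.0535 and 0.0502, each just past the limit. With a replicate block Myd88 was at 0.69 with an edgeR FDR of 0.0552, also past it. Acaa1a, which shares exonic bases with Myd88 on the other strand, had a log2 fold change of -0.30 (SE 0.120, edgeR FDR 0.134).

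Among the subunits, none passed the test in CAC against NOR mice. Rela, the activating subunit of the canonical dimer, stood at 40.7, 45.8, 42.8 and 40.4 CPM in NOR, at 51.6, 45.1, 54.1 and 54.3 in CAC, at 58.2, 48.2, 51.0 and 48.5 in AM and at 49.7, 57.3, 55.4 and 43.0 in KD mice. It had the smallest spread within NOR mice of the 4 subunits relative to its level, and only CAC 2 lay within the NOR range. The log2 fold change was 0.27 (SE 0.0886, edgeR FDR 0.0761). Nfkb1, whose product is processed to the DNA-binding partner of Rela, stood at 52.3, 60.1, 62.2 and 57.3 CPM in NOR, at 51.7, 53.6, 74.2 and 53.6 in CAC, at 84.4, 57.6, 49.6 and 56.2 in AM and at 67.4, 47.1, 45.3 and 52.5 in KD mice. Its highest values were in CAC 3, AM 1 and KD 1, and its log2 fold change of CAC over NOR was 0.01 with a 95% interval of -0.29 to 0.30.

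Nfkb2 and Relb form the dimer of the non-canonical branch. Nfkb2 stood at 21.6, 38.3, 36.3 and 36.4 CPM in NOR, at 36.3, 36.5, 55.2 and 65.6 in CAC, at 71.0, 39.5, 33.9 and 38.4 in AM and at 53.8, 32.5, 28.7 and 30.8 in KD mice. NOR 1 was the lowest of all 16 mice, and AM 1 and KD 1 each stood well above the rest of their groups. The log2 fold change of CAC over NOR was 0.54 (SE 0.248, edgeR FDR 0.188). Relb stood at 14.1, 20.7, 25.0 and 20.8 CPM in NOR, at 19.99, 22.5, 35.02 and 25.8 in CAC, at 31.2, 21.5, 19.3 and 26.1 in AM and at 30.0, 20.5, 13.2 and 19.4 in KD mice, with groups that overlapped widely and a log2 fold change of 0.36 (SE 0.219, edgeR FDR 0.325). The value for Relb was 0.18 to 0.48 with any one library left out.

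Bcl3, an IkB-like protein that binds subunit dimers in the nucleus, stood at 5.80, 11.4, 9.55 and 7.30 CPM in NOR, at 14.01, 10.8, 26.9 and 21.8 in CAC, at 25.3, 16.8, 17.7 and 12.4 in AM and at 21.5, 16.9, 9.84 and 9.25 in KD mice. Only CAC 2 lay within the NOR range. Over all 8 mice its log2 fold change, 1.11 (SE 0.321), was the largest of the 10 genes, and its edgeR FDR of 0.0530 narrowly missed the limit. DESeq2 gave an adjusted p of 0.00739 for the same 8 libraries, and edgeR without CAC 2 an FDR of 0.0361. A covariate for lymphocyte markers, described below, also put it within the limit.

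Nfkbia stood at 56.7, 47.7, 65.4 and 86.7 CPM in NOR, at 113, 98.1, 116 and 145 in CAC, at 96.5, 73.4, 59.9 and 101 in AM and at 72.3, 124, 97.9 and 68.8 in KD mice. All CAC mice lay above all NOR mice, with NOR 4 the nearest, and the AM and KD mice lay between and across both groups. The log2 fold change was 0.88 (SE 0.196, edgeR FDR 0.0232). It was 0.76 to 1.06 with any one library left out, and the edgeR FDR was past the limit without NOR 1 (0.0592), NOR 2 (0.0598), NOR 3 (0.0663) or CAC 1 (0.0515). Tnfaip3, a ubiquitin-editing enzyme that shuts the pathway off, stood at 14.5, 18.5, 17.8 and 16.01 CPM in NOR, at 6.17, 13.8, 22.2 and 13.5 in CAC, at 17.4, 17.8, 14.05 and 19.4 in AM and at 23.3, 7.85, 6.68 and 15.2 in KD mice. Its lowest values, in CAC 1, KD 2 and KD 3, were all from libraries low in B cell markers, and its log2 fold change was -0.26 (SE 0.325, edgeR FDR 0.662). Of these 2 inhibitors, both with a consensus match in a promoter window, 1 passed the test.

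The two-sided exact permutation test gave p = 0.0286 for Nfkbia, Myd88 and Tnfrsf1a, the smallest value that 4 mice against 4 allow. Over the 60 such tests of the 10 genes in 6 comparisons, 6 were below 0.05 and the smallest Benjamini-Hochberg adjusted value was 0.286. Without the 5 libraries low in B cell markers, Tnfrsf12a was the 1 gene of the 10 that passed in edgeR, and Nfkbia (0.69, FDR 0.180), Myd88 (0.63, FDR 0.126) and Tnfrsf1a (0.45, FDR 0.0846) did not. In the mice labelled C57BL/6 alone 1 gene passed, Nfkbia (1.06, edgeR FDR 0.0486), and in those labelled BALB/c alone 0 did, at 2 mice against 2. Bcl3 was at 0.56 in the former and 1.53 in the latter, Tnfrsf12a at 0.25 and 1.24, Nfkb2 at 0.30 and 0.73, Myd88 at 0.44 and 0.96, Rela at 0.20 and 0.38, and Tnfaip3 at -0.69 and 0.08. Nfkb1 was near 0 in both (-0.06 and 0.09). Other members did not follow this order. Nfkbia was at 1.06 and 0.77, Tnfrsf1a at 0.63 in both, and Relb at 0.32 and 0.41.

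**Figure D2:**
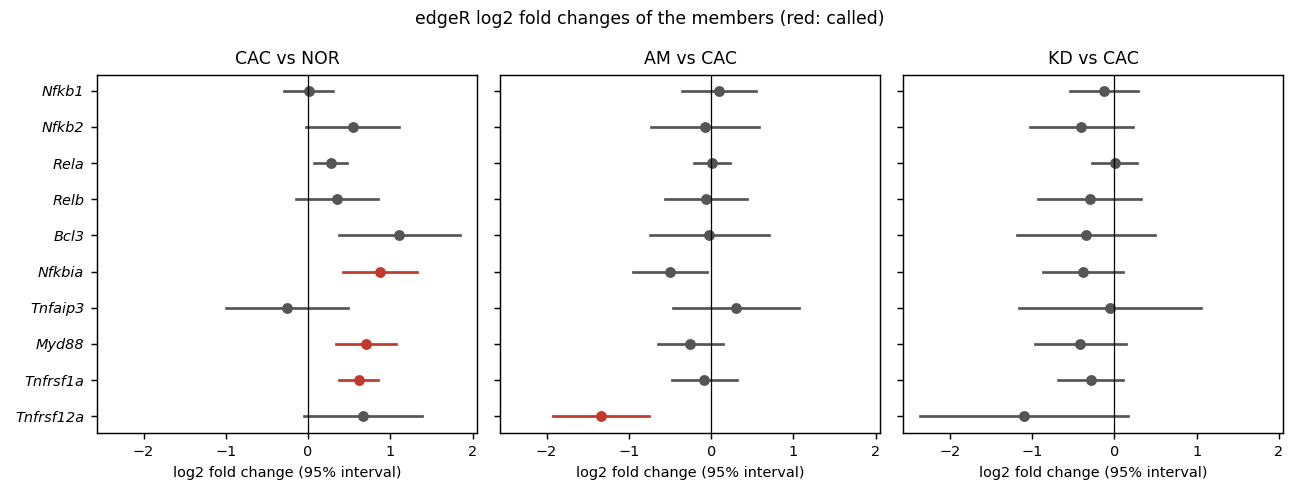
log2 fold change of each gene with its 95% interval in edgeR, for CAC over NOR, AM over CAC and KD over CAC mice, 4 mice against 4. Red marks genes past both limits: Nfkbia, Myd88 and Tnfrsf1a in the first panel and Tnfrsf12a in the second, with no red in the third.

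Leaving out single mice shows how near the limit these calls stand.

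**Figure D3:**
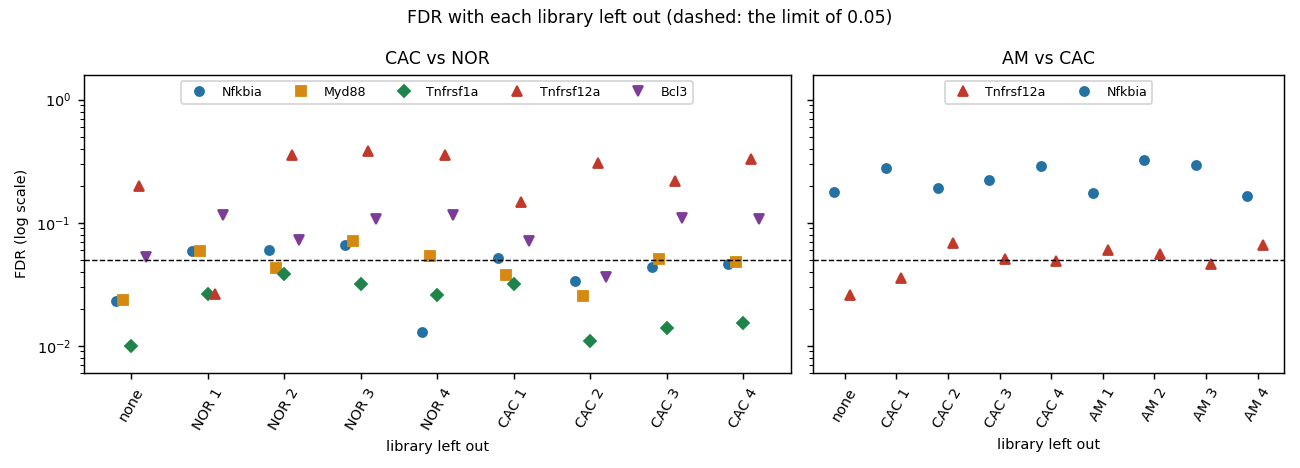
FDR (log axis) of selected genes in edgeR with no library or with each library left out in turn, for CAC against NOR mice on the left and AM against CAC mice on the right. In the left panel the Tnfrsf1a points stay below the dashed limit of 0.05, those of Nfkbia and Myd88 fall on both sides of it, and the Tnfrsf12a point drops below it without NOR 1.

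AM mice were compared with CAC mice for what amiloride changed in cachectic muscle. This comparison and the previous one share the CAC mice, so their values are not independent of each other. Of the 10 genes, Tnfrsf12a alone fell and 0 rose, against 2.03% of all 14674 genes that fell and 1.63% that rose. Tnfrsf12a was at 20.2 ± 5.30 CPM in AM and 51.2 ± 12.3 in CAC mice (SD, n = 4). This is -1.34 on the log2 scale (SE 0.255, edgeR FDR 0.0257), and the groups did not overlap (exact permutation p = 0.0286). With all 16 libraries in 1 fit it was -1.34 with an edgeR FDR of 0.147, and with a replicate block -1.35 with an edgeR FDR of 0.132, so that neither fit called it. It was 1 of 10 genes without overlap, against 15.7% of all genes. Fibroblast and tendon markers were higher in every AM than in every CAC mouse, as given above, and their part in this difference was not tested. Against NOR mice, at 32.3 ± 15.3 CPM, AM mice differed by -0.66 (SE 0.316, edgeR FDR 0.556). With any one library left out this was -0.78 to -0.29, and NOR 1, at 55.0 CPM, raises the NOR mean.

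The drop of Tnfrsf12a had the same direction with any one library left out (-1.49 to -1.16), but its edgeR FDR was past the limit without CAC 2 (0.0685), CAC 3 (0.0506), AM 1 (0.0602), AM 2 (0.0554) or AM 4 (0.0662). It was also -1.46 without the 5 low libraries (FDR 0.0781) and -1.03 without the 4 libraries of the shared pattern (FDR 0.174). By labelled strain, at 2 mice against 2, it was -1.05 in C57BL/6 (edgeR FDR 0.238) and -1.65 in BALB/c (edgeR FDR 0.232). Tnfsf12, which encodes TWEAK, was at 16.2 to 24.1 CPM in CAC and 17.6 to 23.0 CPM in AM mice, with a log2 fold change of 0.01 (SE 0.142, edgeR FDR 0.974).

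None of the genes that rose in CAC mice passed the test here. Nfkbia was at 82.8 ± 19.6 CPM in AM and 118 ± 19.4 in CAC mice, with a log2 fold change of -0.50 (SE 0.195, edgeR FDR 0.179). Myd88 had -0.26 (SE 0.173, edgeR FDR 0.449), and Tnfrsf1a had -0.09 with a 95% interval of -0.48 to 0.31. Rela, at 51.5 ± 4.66 CPM in AM and 51.3 ± 4.33 in CAC mice, had the narrowest interval of the 10 genes, -0.21 to 0.23. Over all 8 mice, Nfkb1 (0.09), Nfkb2 (-0.07), Relb (-0.07) and Bcl3 (-0.02) lay near 0 on the log2 scale, and the interval of Bcl3, -0.74 to 0.70, was wide. These averages cover values of opposite sign by labelled strain, none of which passed the test at 2 mice against 2. Bcl3 was at 0.77 in mice labelled C57BL/6 and at -0.71 in those labelled BALB/c, Nfkb2 at 0.61 and -0.75, Nfkb1 at 0.43 and -0.28, and Relb at 0.32 and -0.43. Myd88 was at 0.18 and -0.70. The difference between the strains had its smallest unadjusted p for Myd88 (0.00283, edgeR FDR 0.269), followed by Bcl3 (0.00906, FDR 0.326) and Nfkb2 (0.0118, FDR 0.336). Without AM 1 the value of Nfkb2 was -0.38.

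In KD mice, none of the 10 genes passed the test against CAC mice in edgeR, with 0 at an unadjusted p below 0.05, and 1 of all 14593 genes did (0.00685%, and 1627 at an unadjusted p below 0.05). The log2 fold changes of 9 of the 10 were below 0, with a median of -0.32 beside 0.00 for all genes, and no gene was without overlap, against 7% of all genes. By labelled strain, with 2 mice against 2 and no gene of the 10 past the test, 7 of the 10 were above 0 in mice labelled C57BL/6 and all 10 were below 0 in those labelled BALB/c. Shares over all genes are not at hand for the fits by strain, and several of the 10 genes vary together, as given below. Nothing particular to the 10 genes is read from these counts. Bcl3 was at 0.65 and -1.36, Tnfaip3 at 0.67 and -0.70 and Relb at 0.28 and -0.90. Over all 8 mice Tnfrsf12a had the largest difference, -1.10 (SE 0.553, edgeR FDR 0.510; -0.54 in mice labelled C57BL/6 and -1.84 in those labelled BALB/c), with 3 KD mice below every CAC mouse and KD 2 within the CAC range. Without KD 2 it was -1.96 with an FDR of 0.0659, and with any one library left out 0 of the 10 genes passed. Myd88 (-0.41, SE 0.241), Nfkb2 (-0.40, SE 0.276) and Nfkbia (-0.38, SE 0.212) followed. Myd88 was at 0.11 in mice labelled C57BL/6 and -0.94 in those labelled BALB/c, and Nfkb2 at 0.27 and -1.03, whereas Nfkbia was below 0 in both (-0.09 and -0.66). The difference between the strains had an edgeR FDR of 0.854 for Myd88 and for Nfkb2 (unadjusted p 0.0288 and 0.0127).

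Against NOR mice, 0 of 14738 genes passed in AM mice (0%, and 1354 at an unadjusted p below 0.05 in edgeR) and 0 of 14748 in KD mice (0%, and 522). Of the 10 genes, 4 had an unadjusted p below 0.05 in AM mice and 2 in KD mice. Bcl3 was at 18.0 ± 5.36 CPM in AM and 8.51 ± 2.46 in NOR mice, a log2 difference of 1.09 (SE 0.272, edgeR FDR 0.518), and its groups did not overlap. For Rela the difference was 0.29 (SE 0.0930, edgeR FDR 0.518), again without overlap. These 2 genes had an exact permutation p of 0.0286 each (0.286 adjusted over the 60 tests), and 4.71% of all genes had no overlap there. DESeq2 gave an adjusted p of 0.0329 for Bcl3 in the same comparison. In KD mice none of the 10 was without overlap with NOR mice, against 2.16% of all genes. AM and KD mice, compared with each other, gave 0 of 14745 genes in edgeR (0%, and 163 at an unadjusted p below 0.05, none of the 10 among them), and no gene of the 10 was without overlap, against 0.929% of all genes.

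Of 102 further pathway genes, listed by role with earlier results of these data known, 100 could be tested. The chemokine gene Cxcl2 and the cytokine gene Il6 had too few counts, at most 27 and 12 in any library. In CAC against NOR mice 15 of the 100 rose and 1 fell, beside the 4.32% and 5.13% of all genes given above, and the median log2 fold change was 0.14, beside 0.01 for all genes. This list holds products of infiltrating cells beside signaling genes, and neutrophil markers were higher in the same mice, as given above. S100a8 and S100a9, ligands of Toll-like receptors and themselves on the neutrophil list, rose by 3.97 (SE 0.580, edgeR FDR 0.00560) and 3.52 (SE 0.585, edgeR FDR 0.00866). With the cytokine Il1b (2.78, SE 0.366, edgeR FDR 0.00416) they made up the 3 of 16 ligands that rose. Tnf was at 0 to 2.53 CPM in CAC and 0.217 to 0.741 CPM in NOR mice, with an edgeR FDR of 0.471.

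Among the other receptors 5 of 23 rose. Eda2r, a TNF family receptor of ectodysplasin, was at 14.3 to 23.8 CPM in NOR and 65.4 to 88.6 CPM in CAC mice (1.94 on the log2 scale, SE 0.190, edgeR FDR 0.00197). The death receptor Fas rose by 1.43, the lipopolysaccharide receptor Tlr4 by 0.86, the interleukin-1 receptor Il1r1 by 0.72 and the second TNF receptor Tnfrsf1b by 0.65. None of the 19 adaptors passed both limits in edgeR (3 at an unadjusted p below 0.05). Rnf31 (0.42, edgeR FDR 0.0409) and Irak1 (0.36, edgeR FDR 0.0485) missed the fold limit alone, and Traf2 and Traf6 were at -0.02 and -0.04. Of the 11 genes of the kinase complex and its activators 1 rose, the kinase Map3k8 (1.27, edgeR FDR 0.0379), and the kinases Ikbkb and Chuk were at -0.08 and 0.41 without passing. Rel, the remaining subunit, was at 0.04 (SE 0.337).

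Among 11 other inhibitors 2 rose and 1 fell. Nfkbib, which encodes IkB-beta, was at 34.1 to 41.3 CPM in NOR and 69.5 to 86.0 CPM in CAC mice (1.01, SE 0.0997, edgeR FDR 0.00209). The deubiquitinase Otulin rose by 0.66, and Commd1, which promotes the turnover of Rela, fell by 0.61. Of 19 testable targets 4 rose, the survival gene Ier3 (1.51), the matrix protease Mmp9 (1.61) and the adhesion molecules Sele (2.65) and Icam1 (1.16). In place of this list, the 96 genes that the deposited table assigns to NF-kappa B signaling in KEGG, 93 of them tested, gave 7 that rose (7.53%) and 0 that fell, with a median of -0.01. The KEGG set holds 8 of the 10 genes described here and 48 of the 102. Its 7 can therefore include members already counted above, whereas the list of 102 leaves the members out. The 2 counts are not alike for that reason, and no excess is read from the KEGG set.

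**Figure D4:**
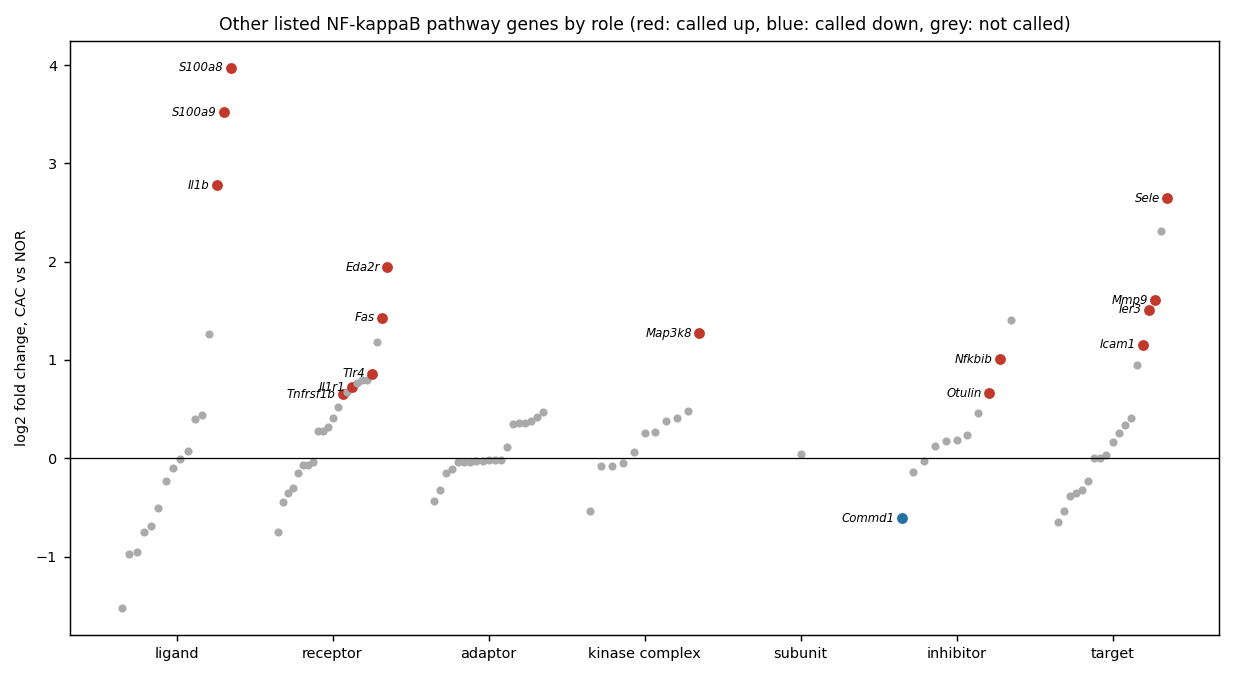
log2 fold change of CAC over NOR mice in edgeR for the 100 tested genes of the list, by role and sorted within each role. Red points (15) rose, the blue point fell and grey points did not pass. Ligands reach from -1.52 to 3.97, whereas the adaptors stay between -0.44 and 0.47.

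With amiloride 4 of these 100 genes fell against CAC mice, 0 rose, and all 4 had risen in CAC mice, which are the shared group. Of all genes tested 2.03% fell and 1.63% rose, and nothing particular to the list is read from its count. They were Eda2r (-1.78, SE 0.196, edgeR FDR 0.00530), Nfkbib (-0.95, SE 0.117, FDR 0.00762), Fas (-1.11, SE 0.171, FDR 0.0133) and Otulin (-0.65, SE 0.150, FDR 0.0462). The 4 calls became 1 with all 16 libraries in 1 fit, and 0 with a replicate block, without the 5 libraries low in B cell markers or without the 4 libraries of the shared pattern, while DESeq2 gave 9. Their AM ranges were 15.2 to 27.9 CPM for Eda2r and 33.1 to 43.4 CPM for Nfkbib. Both lay across the NOR ranges given above. The neutrophil genes S100a8 (-1.18, SE 0.702) and S100a9 (-0.77, SE 0.632) did not pass. In KD mice 0 of the 100 passed in edgeR (11 at an unadjusted p below 0.05), and Nfkbib had the smallest p (-0.80, SE 0.244, edgeR FDR 0.309).

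Members were also set beside the lymphocyte markers of their libraries, as a description with no test. In the 5 libraries low in B cell markers Nfkb1 was at 45.3 to 53.6 CPM, against 49.6 to 84.4 in the other 11. Relb was at 13.2 to 25.8 against 19.3 to 35.02 CPM, and Tnfaip3 at 6.17 to 14.5 against 13.8 to 23.3 CPM, so that each pair of ranges overlapped. Medians of Tnfrsf12a and Nfkbia were higher in the 5 low libraries than in the other 11, 55.0 against 23.1 CPM and 113 against 73.4 CPM. Their ranges overlapped widely, 12.1 to 59.7 against 8.52 to 60.6 CPM for Tnfrsf12a and 56.7 to 145 against 47.7 to 116 CPM for Nfkbia. The 5 libraries come from NOR, CAC and KD mice and none from AM mice, so the AM group differs from the others in this marker content as well. With the log2 of the summed B and T cell markers as a covariate, the differences of CAC from NOR were 1.26 for Bcl3 (edgeR FDR 0.0376) and 0.55 for Tnfrsf1a (edgeR FDR 0.0135, under 1.5-fold).

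**Figure D5:**
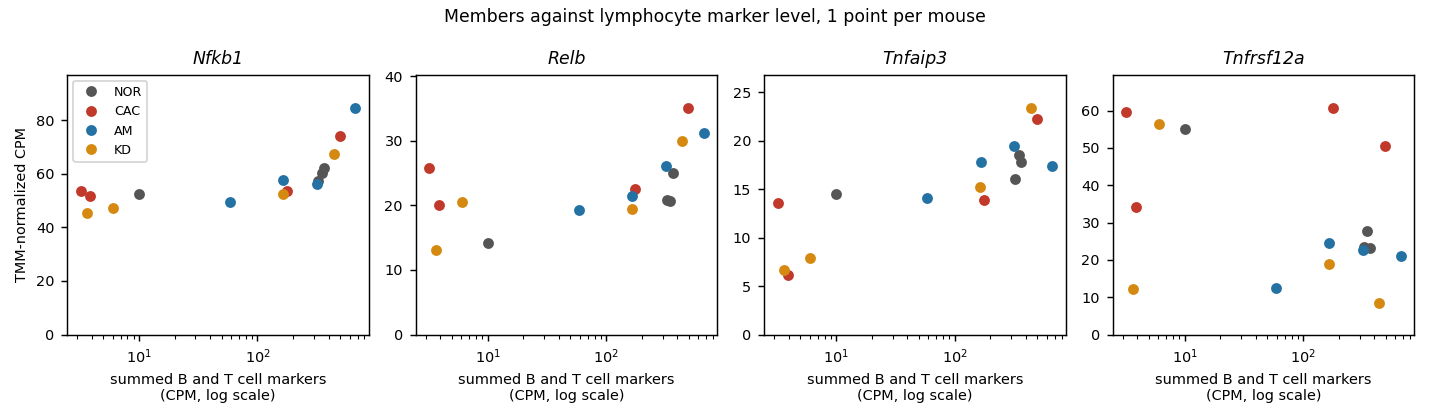
Level (CPM, linear axis from 0) of 4 of the genes against the summed B and T cell marker level of the same library (CPM, log axis), 1 point per mouse, colored by group. Nfkb1, Relb and Tnfaip3 have their highest points at the right, where markers are high, and Tnfrsf12a has the points above 50 CPM on both sides.

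Among the 12 tumor-bearing mice, Bcl3 was at 17.7 to 25.3 CPM in the 4 libraries of the shared pattern and at 9.25 to 26.9 CPM in the other 8, with medians of 21.6 and 13.2. Nfkb2 was at 33.9 to 71.0 and 28.7 to 55.2 CPM there, with medians of 59.7 and 36.4. Tnfrsf12a (16.8 and 29.4 CPM) and Nfkbia (84.4 and 99.8 CPM) had their lower medians in the 4 libraries, and the ranges of all 4 genes overlapped. The labelled strains were set against each other within each comparison by an interaction term. No member passed at an FDR of 0.05 in edgeR (0% of all genes in each of the 3 comparisons), with 0, 3 and 4 members at an unadjusted p below 0.05 for CAC against NOR, AM against CAC and KD against CAC mice, beside 4.89%, 12.4% and 5.65% of all genes. The difference was largest for Bcl3 in KD against CAC mice, where the BALB/c log2 fold change was lower by 2.00 (SE 0.335, edgeR FDR 0.804). CAC 4 and KD 1, both of the shared pattern, both enter that term with a negative sign.

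Across the 16 libraries the genes most like each member by Spearman rank correlation of log2 CPM, among 15219 others, were read as a description. The points share group, depth and marker content. Nearest to Nfkb1 were Tor4a (0.985), Tmem123 (0.976) and the B cell adaptor gene Blnk (0.968). Nfkb2 and Relb shared their nearest gene, the lymphocyte GTPase gene Gimap5 (0.947 and 0.962). It was followed for Nfkb2 by Slc7a7 (0.903) and Cxcl13, a chemokine of lymphoid tissue (0.897), and for Relb by Peli1 (0.935) and Birc3 (0.918). Bcl3 was nearest to the endothelial adhesion gene Icam1 (0.918), Tubb5 (0.912) and Gm10260 (0.900), the last of which is one of the 4 genes that define the shared pattern. Nfkbia was nearest to the sphingosine receptor gene S1pr1 (0.947), Abr (0.935) and Sema7a (0.918), and Tnfrsf1a to the endothelial selectin gene Selp (0.950), Cpne8 (0.932) and Gm45717 (0.926). The genes nearest to Tnfrsf12a were Ssr4 (0.935), the proteasome gene Psmd8 (0.929) and Rnf115 (0.909). Myd88 was nearest to H2afj (0.976), Gm45716 (0.929) and Ptpn2 (0.903), Tnfaip3 to Glipr2 (0.938), Gpr171 (0.918) and Map3k1 (0.909), and Rela to Cnot3 (0.874), Hdc (0.862) and Gch1 (0.856). Between members the highest correlations were those of Nfkb2 with Relb (0.885) and with Myd88 (0.862), and that of Tnfrsf12a with Bcl3 was 0.02.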

How the data were processed

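Poly(A) RNA of gastrocnemius was sequenced by the authors on an Illumina HiSeq2500. The submitters' processing notes name fastp, Bowtie2, HISAT2 and StringTie 1.3.1 and the builds mm9 and GRCm38, without roles. For 16 libraries the deposited table gives raw counts of each gene as whole numbers, beside FPKM that the authors computed. The counting tool and its strandedness are not given in the sources used here. A column of KEGG terms in the deposited table served for 1 alternative list.

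Counts were tested with edgeR 4.0.16 in R 4.3.3 by its quasi-likelihood test (glmQLFit, glmQLFTest), after TMM scaling and removal of low genes (filterByExpr, count of 10, total of 15). Only the 8 libraries of a comparison entered its fit, with Benjamini-Hochberg adjustment over all genes. The study's NOISeq was not used here. CPM in the text are TMM-normalized over all 16 libraries, and log2 CPM used a prior count of 2. The exact permutation test enumerated 70 orders. Alternatives used DESeq2 1.42.0 and limma 3.58.1, the latter also on log2(FPKM + 1). The fits were checked for direction and median fold change on simulated counts. Genes were drawn independently there, without the patterns that libraries share here. Figures used matplotlib 3.10.9. Gene positions came from GENCODE M21, which matched 21905 of 21923 gene IDs, and promoter windows from RefSeq.

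Named genes were the 10 members, listed pathway genes past the limits in a comparison with CAC mice (beside a few named for their role, chosen after values were seen), and the 3 genes most like each member. The members and lists were chosen with earlier results of these data known. Replicates are mice by their labels, and no 2 libraries of a group agreed within sampling noise (chi-square per degree of freedom at least 69.3). Replicate numbers were not used as pairs, as the closing section describes. The counts cover sampling error only, which is small at this depth beside the spread between mice.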

Additional observations from a re-analysis of the deposited data

Results flagged for a closer look

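Single mice that stood far from the rest of their group were looked for with Dixon's test at its 95% critical value, over 40 groups of 4 mice (10 genes in 4 groups). Chance alone marks about 1 in 20 such groups, and 5 of the 40 were marked. Nfkb1 was at 74.2 CPM in CAC 3, above the other 3 CAC mice. Nfkb2 was at 21.6 CPM in NOR 1, below its group, at 71.0 CPM in AM 1 and at 53.8 CPM in KD 1, each above its group. Tnfrsf12a was at 55.0 CPM in NOR 1, above the other 3 NOR mice. NOR 1 is one of the libraries low in B cell markers, and AM 1 and KD 1 are 2 of the 4 libraries that share a pattern of genes. CAC 3, AM 1 and KD 1 also had the highest summed B cell markers of their groups. Whether these features account for the values was not tested.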

How the results depend on the processing

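The 60 member log2 fold changes, of which 4 passed the test, were recomputed in 1500 combinations of value and alternative. A call was lost in 33 of the combinations and gained in 7, and no value that passed turned its direction, whereas 33 of the 60 values turned theirs under some alternative while not passing. In CAC against NOR mice the 3 members became 1 in mice labelled C57BL/6 alone, 0 in mice labelled BALB/c alone, 1 without the 5 libraries low in B cell markers (chosen after seeing the data, as were the other fits on those libraries and on the shared pattern) and 0 at a fold change of at least 2, and 1 to 4 with single libraries left out. The 16 listed pathway genes became 5, 0 and 4 in the first 3 of these settings and 7 with the KEGG list, which holds members as well. They became 9 to 16 with single libraries left out (10 without NOR 1, 9 without NOR 3).

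In AM against CAC mice the 1 member became 0 with all 16 libraries in 1 fit, in either labelled strain alone, without the 5 low libraries, and without the 4 libraries of the shared pattern, and 0 to 1 with single libraries left out. The 4 pathway genes became 9 in DESeq2, 1 with all 16 libraries, 0 in either strain alone, 0 without the 5 or the 4 libraries and 2 at a fold change of at least 2. In AM against NOR mice DESeq2 gave 1 member and 3 pathway genes in place of 0, and 0 to 1 members passed with single libraries left out (Tnfrsf1a without AM 4). In KD against NOR mice DESeq2 gave 2 pathway genes. For the strain interaction DESeq2 gave 2 members in AM against CAC and 1 in KD against CAC mice. The causes were not tested.

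Replicate numbers are shared between groups, but libraries with the same number did not deviate together (r of -0.64 to 0.60, 6 of 24 pairs over 0.1), and 4 of 16 libraries correlated best with their own number. With a replicate block, 0 members and 0 pathway genes passed in AM against CAC mice, and Myd88 was lost in CAC against NOR mice (edgeR FDR 0.0552). With total counts alone the median of all genes moved to 0.14 in CAC against NOR and to -0.11 in KD against CAC mice, and upper-quartile scaling put Tnfrsf1a at 0.56 (edgeR FDR 0.0108), under 1.5-fold. The design of 4 against 4 cannot give an exact permutation p under 0.0286.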

Other observations

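The library KD 3, which held 0 CPM of the 4 Y-linked genes, also had the lowest Relb and Myd88 levels of all 16 mice, at 13.2 and 11.6 CPM, and the lowest summed macrophage markers, at 56.5 CPM.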
